A study of Mus musculus with 2 samples.

Results

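The Dlx and Msx homeobox genes were followed on 2 duplicate Affymetrix Mouse Genome 430 2.0 arrays of E14.5 wild-type whole mouse embryos. The members were the genes Dlx1 to Dlx6 and Msx1 to Msx3, taken as every probe set that the array annotation assigned to 1 of these symbols. All 9 genes were measured, by 13 probe sets, out of 18194 genes with a probe set of 1 symbol. Total RNA of whole embryos was labelled with biotin, and each probe set, a group of short oligonucleotides directed at 1 transcript, received a signal on a linear scale. There was 1 condition, so no groups were compared and no p-value was computed. The embryos of the study at this stage were of the NMRI or C57/BL6 strain, and which of these the arrays used, and whether each array had its own embryo or RNA preparation, is not given in the sources used here, so the spread between arrays may be no more than technical.

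Dlx and Msx proteins are transcription factors that contact DNA through a homeodomain, and both families have relatives in insects, Distal-less and muscle segment homeobox. Mammalian Dlx genes lie as neighbouring pairs, transcribed towards each other, whose members are often active in the same cells. Dlx1, Dlx2, Dlx5 and Dlx6 are known for their part in GABAergic neurons of the ventral forebrain and in the branchial arches, and Dlx3 for its part in skin, teeth, bone and placenta. Msx1 and Msx2 are targets of BMP signalling in tooth, limb and craniofacial mesenchyme, and Msx3 is known from the dorsal neural tube.

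Each signal was set against a background bound of its own array, the 95th percentile of 81 probe sets for receptors of smell, pheromones and bitter taste, assumed to be silent at this stage. This limit stood at 27.9 for array 1 and at 33.8 for array 2, where the median of all probe sets was 32.0 and 35.3. A gene counted as above background if it had a probe set over the limit on each of the arrays. On the arrays as a whole, all 14 markers of abundant embryo tissues passed, among them Alb and Afp of liver (Afp at 3594 on array 1 and 3529 on array 2) and the globin genes Hbb-y and Hba-x. Of 12 listed placental genes 6 were measured. Among these 2 passed, Psg23 (58.4 and 88.4, by a probe set of the type _x_at) and Eomes, a gene also active in the embryonic cortex. The trophoblast gene Tpbpa stood at 0.8 and 5.8, and Esx1, Ascl2 and Cdx2 did not pass either.

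Of the 9 genes, 7 were above background on both arrays: Dlx1, Dlx2, Dlx3, Dlx5, Msx1, Msx2 and Msx3. The share over all genes was 65.5%. Dlx4 and Dlx6 were not above the bound on either array. The split fell inside the Dlx family, with 4 of 6 Dlx genes and 3 of 3 Msx genes above the bound. By probe set, 7 of 13 passed on both arrays, against 49.1% of all probe sets. The number of probe sets bears on the count of genes: 4 of 5 members with 1 probe set passed, against 48.6% of all genes with 1 probe set, and 3 of 4 members with 2 passed, against 76.1%. With so few members these shares describe the genes and set them apart from no others. Since the embryo was taken whole, fewer cells of a type and less RNA per cell cannot be told apart.

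**Figure D1:**
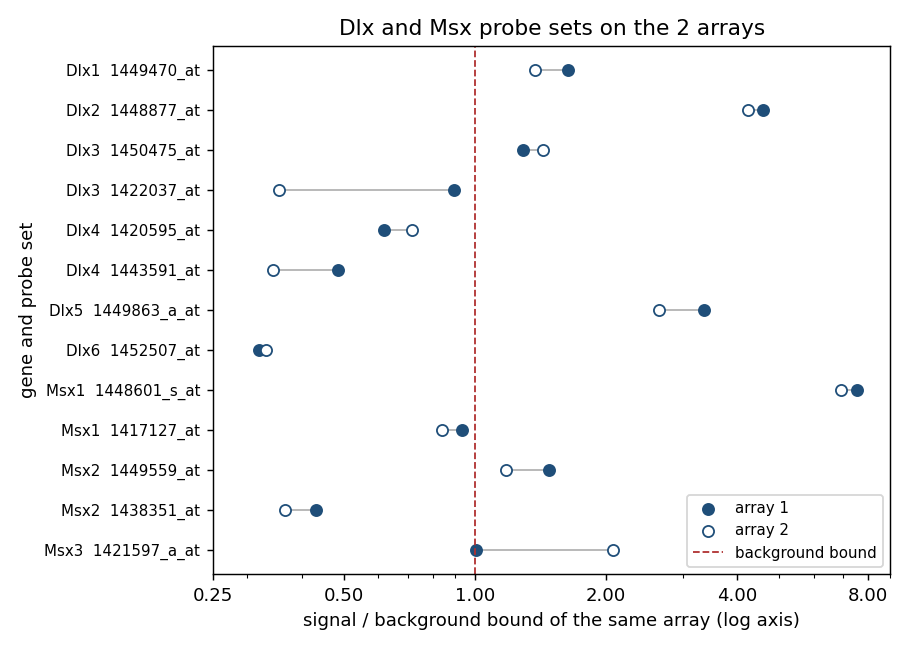
Signal of each of the 13 Dlx and Msx probe sets relative to the bound of its array, on a log axis; filled points are array 1 and open points array 2. The dashed line marks the bound; 7 probe sets lie to its right on both arrays, 6 lie to its left on both, and the Msx3 probe set touches it on array 1.

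Dlx1 and Dlx2, which act early in progenitors of GABAergic neurons, were both above background. The Dlx2 probe set had signals of 127.9 on array 1 and 143.5 on array 2 (mean 135.7 ± 11.0, SD, n = 2), or 4.58 and 4.25 times the bound. Dlx1 had 45.7 and 46.3 (mean 46.0 ± 0.42, SD, n = 2), the smallest fold between the arrays of the 13 probe sets at 1.01, and cleared the bound by 1.64 and 1.37 times. Both genes passed on each array, Dlx2 at more than 4 times and Dlx1 at less than 2 times the bound. In the RefSeq annotation of GRCm38.p6 they lie side by side on chromosome 2 with the antisense gene Dlx1as as the only annotated gene between them. Dlx1as, which was not a member and was looked up after its values were known, had 44.3 and 59.9 and was above the bound as well. The array annotation gives Dlx1as a probe set of its own, and whether sense and antisense transcripts of the locus were kept apart by the probes was not tested.

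Dlx5 and Dlx6 form the pair on chromosome 6 that is known for jaw, limb and late interneuron development. Here the pair was divided. Dlx5 had signals of 93.7 and 89.6 (mean 91.7 ± 2.90, SD, n = 2), at 3.36 and 2.65 times the bound, whereas the only probe set of Dlx6 had 8.9 and 11.2 (mean 10.1 ± 1.63, SD, n = 2), at 0.32 and 0.33 times the bound. The median of the receptor probe sets on the same arrays was 6.4 and 7.5. Probe sets differ in their response, so the values do not rank the transcripts of Dlx5 and Dlx6. Dlx6os1, the long noncoding RNA also known as Evf2 that overlaps Dlx6 and was named after its values were known, had 19.4 and 18.2, and Dlx6os2 had 1.4 and 1.8. Neither passed the bound.

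In the chromosome 11 pair, Dlx3 passed through 1 of its 2 probe sets and Dlx4 through none. The Dlx3 probe set 1450475_at had signals of 36.0 and 48.3 (mean 42.2 ± 8.70, SD, n = 2), at 1.29 and 1.43 times the bound. The second probe set, 1422037_at, which the annotation ties to the same sequence record, had 25.0 and 12.0 and lay below the bound on both arrays. The probe sets also moved in opposite directions between the arrays, 1.34 times higher on array 2 for the first and 0.48 times the array 1 signal for the second. Dlx4, whose role in the mouse embryo is less clear, had 17.2 and 24.2 by 1 probe set and 13.5 and 11.6 by the other. All 4 of these Dlx4 values were under the bound, and the antisense gene Dlx4os had 6.4 and 2.9. Of the 3 neighbouring pairs, 1 was thus above the bound in both genes and 2 in a single gene. No annotated protein-coding gene lies between the members of any pair.

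All 3 Msx genes were above background, each through a single probe set. Msx1, a gene of tooth and palate mesenchyme, had signals of 210.4 and 233.9 by the probe set 1448601_s_at (mean 222.2 ± 16.6, SD, n = 2), or 7.54 and 6.92 times the bound. Its other probe set, 1417127_at, was assigned to the same sequence record and had 26.0 and 28.4, just under the bound at 0.93 and 0.84 times. The call for Msx1 therefore rested on 1 probe set whose suffix _s_at marks oligonucleotides that can match transcripts of more than 1 gene, and which other transcripts were matched was not tested. Without probe sets of the types _s_at and _x_at, Msx1 was not above the bound. Msx2, a gene of skull, skin and limb, had 41.2 and 39.8 by 1449559_at (mean 40.5 ± 0.99, SD, n = 2), at 1.48 and 1.18 times the bound, and 12.0 and 12.4 by 1438351_at. Between the arrays the Msx2 probe sets differed by 1.04-fold and 1.03-fold, and they lay on opposite sides of the bound on each.

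Msx3 differed between the duplicates. Its only probe set, 1421597_a_at, whose suffix _a_at (as for Dlx5) marks oligonucleotides shared by alternative transcripts of 1 gene, had a signal of 28.0 on array 1, against a bound of 27.9, and 70.1 on array 2, 2.07 times the bound (mean 49.1 ± 29.8, SD, n = 2). The fold between the arrays was 2.50. Among 6920 probe sets with a mean signal from 32 to 64, 0.766% differed by as much. On array 1 the signal was 1.00 times the bound, and of the 7 passing probe sets this one had the widest spread between the arrays. Of the dorsal neural tube list, 7 of 14 measured genes passed on both arrays, against 65.5% of all genes. Their median centred log2 ratio (array 2 over array 1) was 0.13, with 5 of 7 higher on array 2. The SD over single probe sets above the bound was 0.26, which is not a measure of the spread of a median of 7 genes. A list for inner ear and olfactory epithelium had a larger median, 0.29, with 4 of 5 higher. Whether dorsal neural tube genes moved with Msx3 was not tested. Pax3 (60.0 on array 1 and 85.8 on array 2) and Pax7 (122.1 and 136.1), which mark dorsal progenitors, were among the passing dorsal neural tube genes. The roof plate and dorsal midline ligand genes Wnt1 (17.1 and 19.1) and Wnt3a (21.5 and 24.2) were not.

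Agreement between the arrays followed the signal. The median fold between the arrays was 1.60 for probe sets with a mean signal below 16, 1.27 from 16 to 32, 1.18 from 32 to 64 and 1.12 from 64 to 128, and it was 1.09 from 128 to 256. Of the 7 Dlx and Msx probe sets above the bound, 1 differed by more than 1.5-fold, that of Msx3, against 3.79% of all 22138 probe sets above the bound. The other 6 differed by 1.01 to 1.34-fold, with Dlx3 at the upper end. In log2 terms the 7 had a median absolute difference of 0.14 after centring, as did all probe sets above the bound, at 0.14. Signals were higher on array 2 for 5 of the 7 and for 4 of the 6 below the bound. Only 1 of those 6 differed by more than 1.5-fold, the second probe set of Dlx3 with 2.08, and 7.53% of probe sets with mean signals from 16 to 32 differed by that much or more.

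**Figure D2:**
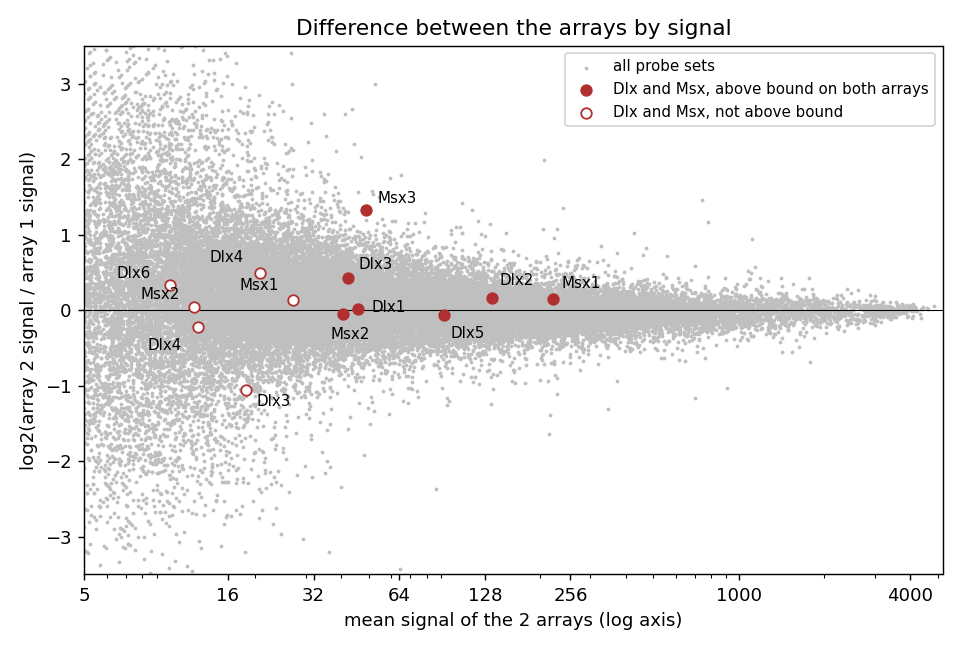
Log2 ratio of array 2 over array 1 against the mean signal of the arrays (log axis) for all probe sets (grey) and for the Dlx and Msx probe sets above the bound (filled red) or not (open red). Probe sets with a mean signal under 5, a signal of 0 or a ratio beyond the axis are not drawn. The grey cloud narrows with signal, and Msx3, at 1.32 on the vertical axis, lies near its upper edge.

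Probe sets of 1 gene disagreed in most members that had several. In 3 of the 4 (Dlx3, Msx1 and Msx2) 1 probe set passed on both arrays and the other did not, and in Dlx4 both failed. Over the array, 53.3% of the 9012 genes with several probe sets held passing and failing ones together. That share includes genes with more than 2 probe sets, whereas these 4 members had 2 each. When the mean log2 signal of all probe sets of a gene was used, Dlx3 and Msx2 fell below the bound and Msx1 stayed above it. Of the 7 passing probe sets, 4 (Dlx1, Dlx3, Msx2 and Msx3) stayed within 2 times the bound on either array or on both, against 30.1% of all passing probe sets. Only Dlx2, Dlx5 and Msx1 exceeded 2 times the bound on both arrays.

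**Figure D3:**
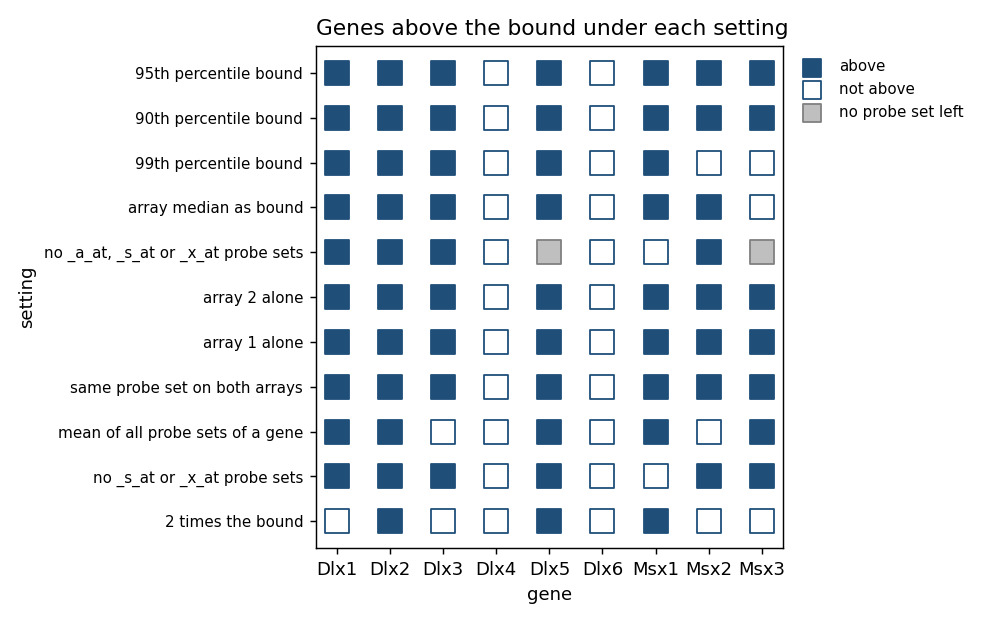
Each of the 9 genes (columns) under the setting used in the text (top row) and 10 alternatives (other rows): filled squares were above the bound on both arrays (or on the single array named), open squares were not, and grey squares had no probe set left. Dlx2 is filled throughout, Dlx4 and Dlx6 are open throughout, and Msx3 is filled under 6 of the alternatives.

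Genes of tissues and pathways where Dlx and Msx genes act, and of reported binding partners, were tallied from 10 lists with 127 measured genes. Of these, 90 (70.9%) were above background, near the share of 65.5% over all genes. Each list count below is to be read beside that share. Genes with 2 probe sets passed more often (76.1%) than genes with 1 (48.6%), and the list counts were not adjusted for this. Each gene is shown by its probe set with the highest mean signal, on array 1 and then array 2. In the subpallial GABAergic programme, where Dlx1 and Dlx2 are required, 14 of 17 genes passed. They included the GABA synthesis genes Gad1 (102.3 and 93.7) and Gad2 (52.2 and 60.3) and the vesicular GABA transporter gene Slc32a1 (36.5 and 54.5). The exceptions were the progenitor factors Gsx2 (2.1 and 6.3), Gsx1 (14.9 and 2.6) and Nkx2-1 (13.7 and 24.3). At 2 times the bound the count of this list was 8 of 17. For branchial arch patterning, in which endothelin signalling acts upstream of Dlx5 and Dlx6, 9 of 13 passed, with Ece1 (161.8 and 81.7), Hand2, a Dlx5 and Dlx6 target in the arch (199.7 and 198.9), and Hand1 (43.2 and 36.8) among them. The ligand gene Edn1 (9.6 and 8.5), Gbx2 (15.9 and 18.5) and Alx4 (15.3 and 16.1) did not pass, nor did Gsc, which was above the bound on array 2 only (22.1 and 39.8).

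Of the BMP pathway genes around Msx1 and Msx2, 16 of 18 passed. The ligand genes Bmp4 (146.0 and 112.5), Bmp2 (91.4 and 120.7), Bmp7 (60.9 and 70.8) and Bmp5 (133.3 and 115.5) all did. The effector gene Smad9 (25.2 and 16.1) and the antagonist gene Noggin, Nog (7.4 and 6.3), were the exceptions. Tooth germ genes passed in 5 of 13 cases: Pax9 (35.3 and 42.2), Lef1 (40.0 and 39.9), Shh (129.6 and 112.0), Barx1 (51.5 and 68.1) and the enamel gene Amelx (29.0 and 52.6). The Amelx probe set shown was of the type _x_at and close to the bound on array 1. Without _s_at and _x_at probe sets the tooth count was 4. The other 8 of the 13 did not pass, among them Fgf8 (0.8 and 1.0) and, named after their values were seen, the enamel and dentine matrix genes Ambn (14.4 and 13.9), Enam (10.9 and 3.6) and Dspp (1.2 and 1.2). Limb bud genes passed in 11 of 16 cases, including Fgf9 (52.0 and 72.4). Fgf8, a ligand of the apical ridge, Fgf4 (27.8 and 41.7), Fgf17 (17.6 and 26.2), En1 (31.8 and 33.4) and Tbx5 (27.4 and 9.9) did not pass. Fgf4 missed the bound on array 1 only (27.9), and En1 on array 2 only (33.8). At the 90th percentile bound the limb count was 13, by the mean log2 signal of all probe sets 7, and at 2 times the bound 6. Msx1 and Msx2 were above the bound, as were 16 of 18 BMP genes and 5 of 13 tooth genes, against 65.5% of all genes. The tooth count was 3 at the 99th percentile bound and 2 by the mean log2 signal of all probe sets. It was 1 at 2 times the bound. Where in the embryo any of the transcripts named here lay was not measured.

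In bone and cartilage, where Dlx3, Dlx5 and Msx2 act, all 11 measured genes passed, against 65.5% of all genes. Among them were Sp7 (48.1 and 71.9), Alpl (134.7 and 157.7), Ibsp (618.7 and 700.9) and Col1a1 (2915 and 2763). In the epidermis and hair list of Dlx3, 9 of 14 passed, including Trp63 (66.7 and 71.4), the keratin genes Krt5 (553.3 and 520.4), Krt14 (354.1 and 310.2) and Krt1 (666.8 and 609.0). The late barrier genes Flg (3.6 and 4.4) and Ivl (0.7 and 5.6) and Foxn1 (23.3 and 27.5), Hoxc13 (5.1 and 5.0) and Edar (2.3 and 2.3) did not. In the inner ear and olfactory list, tissues affected by loss of Dlx5, 5 of 10 passed, with Eya1 (57.5 and 70.9) and Gata3 (43.8 and 43.5) above and Hmx2 (11.3 and 15.2) and Hmx3 (17.9 and 9.5) below the bound. The inner ear and olfactory count was 3 without _a_at, _s_at and _x_at probe sets. It was also 3 by the mean log2 signal of all probe sets, and 1 at 2 times the bound. All 12 genes of the partner and cofactor list passed, including the Dlx-binding MAGE protein gene Maged1 (949.5 and 792.5), Ndn (2525 and 2524), Pias1 (189.0 and 203.3) and the corepressor gene Tle1 (213.7 and 210.0).

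**Figure D4:**
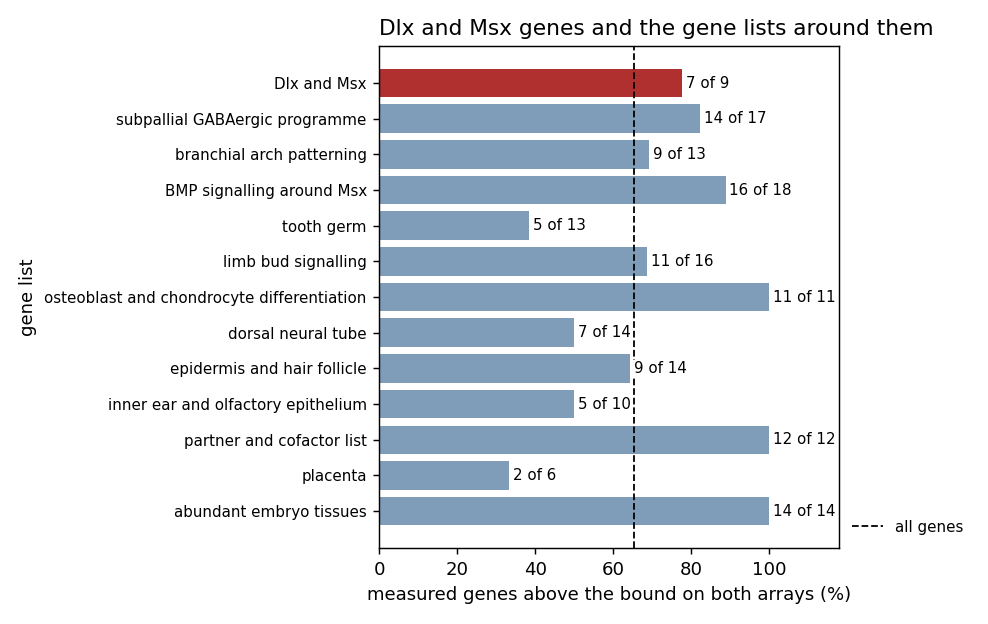
Measured genes above the bound on both arrays, in percent, for the Dlx and Msx genes (red), the 10 lists around them and the markers of placenta and abundant tissues (blue), with the numbers of genes beside the bars. The dashed line marks all genes (65.5%); the Dlx and Msx genes reach 7 of 9, and the 10 lists run from 5 of 13 for tooth germ to all genes of the bone and partner lists.

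Among other homeobox families on the same arrays, 21 of 33 Hox genes (63.6%) and 9 of 12 LIM homeobox genes (75%) were above background by the same rule, beside 7 of 9 Dlx and Msx genes. The numbers are small and no test of a difference was made.

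RefSeq promoter windows (GRCm38.p6, 250 bases before to 50 after the start) were listed for 5 members, Dlx1, Dlx2, Msx1, Msx2 and Msx3. They were searched on both strands for TAATTA, a core to which Dlx and Msx homeodomains bind and which reads the same on both strands, and for TAATTG. The window of Msx2 held TAATTA once, 187 bases before the start, and no window of the 5 held TAATTG. Of 32851 windows, 5.29% held TAATTA and 8.00% held TAATTG. The stretch is shown because Msx2 is the single member with a match, with the core in capitals (chr13:53472937-53472992, minus strand).
Msx2: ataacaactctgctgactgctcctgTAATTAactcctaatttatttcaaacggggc
A match describes the letters of this window, and the arrays measured no binding.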

How the data were processed

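Whole wild-type embryos at E14.5 gave the total RNA for 2 Mouse Genome 430 2.0 arrays. Scans were processed by the authors in GCOS 1.3 (named in the submitters' processing notes), who deposited 1 signal intensity per probe set and array, on a linear scale with a trimmed mean of 100 (2% cut at each end). Detection calls were not used here. Precision is limited by there being 2 arrays.

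Probe sets were named from the array annotation, with current symbols taken by gene identifier from RefSeq (GRCm38.p6) for 34754 of 34958 probe sets with 1 symbol; 932 with several and 9211 not listed named no gene. No probe set with several symbols listed a member. Log2 differences between arrays were centred on the median of probe sets above the bound on both arrays (0.01). All member genes and probe sets are named, and, of each list, the first 4 measured genes and, where they are 5 or fewer, the exceptions, which lie on the other side of the bound from most of the list. Of 166 listed genes 145 were measured; the others were not analysed here. The members and lists were chosen with earlier results of these data known. Protein sequences were not used here.

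As alternatives the bound was set to the 90th or 99th percentile or to the array median, with removal of probe sets ending in _a_at, _s_at or _x_at, each array alone, 2 other rules for calling a gene, and, for differences between arrays, no centring, quantile normalization and no filter with a pseudocount of 16. Removal of _s_at and _x_at alone and a bound 2 times as high were added after the data were seen. The steps were tested on simulated arrays. Their expressed probe sets were drawn well above the silent ones, so the test does not cover calls near the bound. Versions were Python 3.11.15, matplotlib 3.10.9, scipy 1.17.1, numpy 2.4.6 and pandas 2.3.3.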

Additional observations from a re-analysis of the deposited data

How the results depend on the processing

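Dlx2 was above the bound under all 10 alternatives and Dlx4 and Dlx6 under none. The count of Dlx and Msx genes stayed between 5 and 7 under 8 alternatives, with 7 for either array alone and 7 of 13 probe sets in each case. It was 4, as was the count of probe sets, without _a_at, _s_at and _x_at probe sets, a removal that leaves Dlx5 and Msx3 without a probe set and Msx1 with the one below the bound. With 2 times the bound both counts were 3 (Dlx2, Dlx5 and Msx1), and the count of LIM homeobox genes was 3 of 12. The count over all genes, 11925 of 18194 with the bound of the text, also fell under these settings. It was 10158 without _a_at, _s_at and _x_at probe sets and 9424 with 2 times the bound. Across the 10 alternatives the count over all genes ran from 9424 to 12553. At the 99th percentile bound of 33.9 and 41.4, Msx2 and Msx3 no longer passed, and with the array median as bound Msx3 did not. The distinct genes above the bound in the 10 lists ranged from 63 to 93 of 127, and 92 to 93 with 1 array alone; Hox genes ranged from 16 to 23, and 22 to 23 with 1 array. Of 100 list counts under the alternatives, 91 were within 1.5 times their value in the text. Of 21 log2 differences of member probe sets under the alternatives, 20 moved by less than the SD of 0.26 over probe sets above the bound on both arrays; that of Msx3, 1.31 in the text, was 0.94 without a filter and with the pseudocount. The count of member probe sets beyond 1.5-fold was 1 under each of these 3 alternatives. No paired analysis was possible because there was 1 group, and the differences between the arrays need both arrays. Low signals limit Dlx1, Dlx3, Msx2 and Msx3 most, since they lie within 2 times the bound on at least 1 array.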
